A study of Mus musculus with 3 samples.

Results

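The p53 target genes described here are Cdkn1a, which encodes the cell-cycle inhibitor p21, together with Mdm2, Ccng1, Plk3, Sesn1, Sesn2, Trp53inp1, Phlda3 and Btg2. They were taken as every probe set whose only gene symbol in the platform annotation was one of 10 listed genes, and 9 of the 10 had a named probe set, with 20 probe sets among 45037 and 9 genes among 18193. Bax, the remaining listed gene, was not analysed here. The members were selected on earlier results of the same comparison, in which Cdkn1a was among the genes with the largest difference between control and acetate, so the differences between control and acetate arrays are given for the 9 genes as a description, without a test. Kidney RNA of C57BL/6 mice was hybridised to single-colour Affymetrix arrays, 1 array per mouse. The control group is 1 mouse, and the acetate group is 2 mice that drank 200 mM acetate, a short-chain fatty acid, for 6 weeks. The start age was 3 weeks for the control mouse and for both acetate-fed mice. The samples are whole kidney tissue of 1 strain under conventional housing, and the labels used here give no sex.

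The protein p53 is a transcription factor that is held at a low level in healthy cells and accumulates after DNA damage and other stresses. It then switches on genes that stop the cell cycle, lower metabolic stress, promote cell death or, through Mdm2, bring about its own degradation. Many of these genes also respond to other factors, and p21 in particular is induced in the injured tubular epithelium of the kidney. Whether Cdkn1a differed together with other p53 targets or alone was the question put to the 3 arrays.

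Cdkn1a was not alone in lying above the control. Plk3 differed from the control by at least as much, 2.70-fold in mouse 1 and 3.31-fold in mouse 2, against 2.69-fold and 2.78-fold for Cdkn1a. Trp53inp1, Btg2, Phlda3 and Sesn1 were higher by smaller amounts, between 1.29-fold and 1.93-fold in either mouse. Ccng1 and Mdm2 were higher by at most 1.22-fold at their brightest probe sets, and Sesn2 lay above the control in one mouse and below it in the other. All values are deposited log2 expression values, on which a difference of 1 is a 2-fold change, and each gene is read at its brightest tested probe set, that with the highest mean over the 3 arrays. At that probe set, 8 of the 9 genes were higher than the control in both acetate-fed mice, where 26% of 13473 tested genes were higher in both and 30.9% lower in both. At least 1.5-fold higher in both were 3 of the 9 genes (1.75% of all tested genes), and 2 were at least 2-fold higher in both (0.408%). No member was lower in both at that probe set. Because the list was chosen with this comparison known, nothing is read from the distance between the counts and their background.

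**Figure D1:**
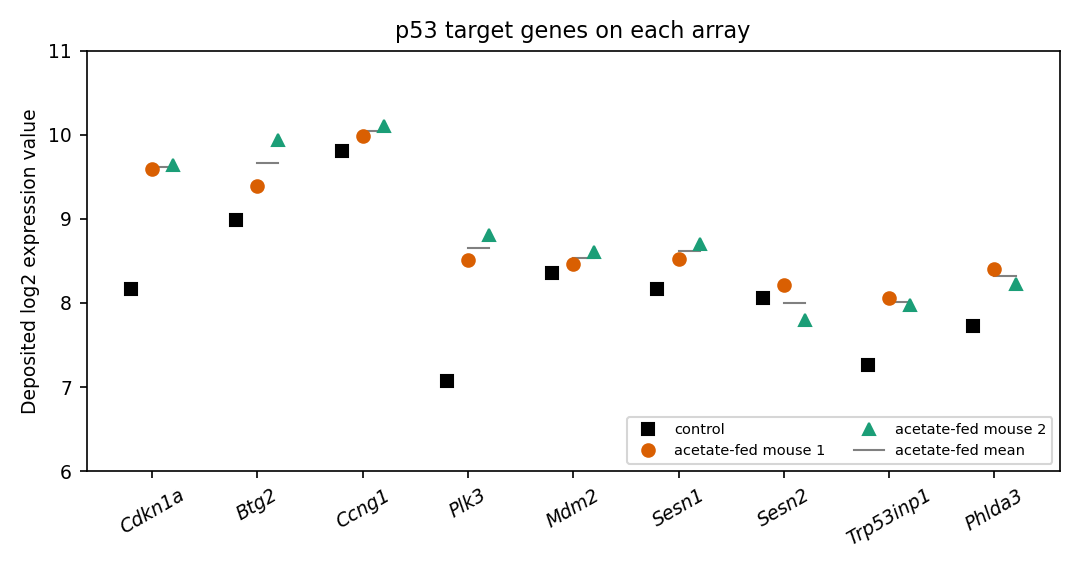
Deposited log2 expression value (vertical axis) of the 9 p53 target genes, each at its brightest tested probe set, for the control array (black squares), acetate-fed mouse 1 (orange circles) and acetate-fed mouse 2 (green triangles), with a grey line at the mean of the acetate-fed pair. The black square lies below both coloured points for 8 genes, farthest below them for Plk3 and Cdkn1a, and between them for Sesn2.

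The control is a single array, so its own error is unknown, and both differences of a gene share it. In bulk tissue, more cells that express a gene and more RNA per cell cannot be told apart. The gap between the 2 acetate-fed mice is the one measure of spread in these data. Its median over the 27022 tested probe sets was 0.05 on the log2 scale, and its 95th percentile was 0.38. At 33.7% of these probe sets the values of the 2 mice were exactly equal, which lowers that median. Over the 18 tested probe sets of the members the median gap was 0.10. In 6 of the 9 genes the smaller of the 2 differences from the control exceeded the gap between the mice. Where both mice have equal values any difference passes, and the same count over all tested genes was not made. Nothing is therefore read from the 6.

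Among the genes that halt the cell cycle, Cdkn1a encodes p21, which binds and inhibits cyclin-dependent kinases and is the classical mediator of p53-dependent arrest. Its brighter probe set, 1424638_at, read 8.17 in the control kidney, 9.59 in acetate-fed mouse 1 and 9.64 in acetate-fed mouse 2. The acetate-fed mean was 9.62 ± 0.03 (SD, n = 2), 2.73-fold above the control. The second probe set, 1421679_a_at, read 7.45, 8.90 and 8.84, with an acetate-fed mean of 8.87 ± 0.04 (SD, n = 2), 2.68-fold above the control. At both probe sets the control lay far below a closely matched pair, with mouse 2 the higher at the first and mouse 1 at the second. By mean difference Cdkn1a ranked 45 of 13473 tested genes and Plk3 ranked 28.

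RefSeq lists 2 transcript starts for Cdkn1a, and neither probe set can be assigned to one of them from the sources used here. Their promoters are printed to show where p53 consensus letters lie, beside those of Ccng1 and Mdm2, which differed by at most 1.22-fold at their brightest probe sets (other Ccng1 probe sets by up to 1.54-fold), and Plk3, whose difference was the largest of the 9. Each runs from 250 bases before to 50 bases after the start, 5′ to 3′ on the gene's own strand. The sequences are those of RefSeq in build GRCm38.p6. Capitals mark matches to the p53 half-site consensus, to 2 adjoining half-sites with at most 1 mismatch, and to GGGCGG or its reverse complement, the GC box.
Cdkn1a, upstream start (chr17:29090729-29091028, + strand): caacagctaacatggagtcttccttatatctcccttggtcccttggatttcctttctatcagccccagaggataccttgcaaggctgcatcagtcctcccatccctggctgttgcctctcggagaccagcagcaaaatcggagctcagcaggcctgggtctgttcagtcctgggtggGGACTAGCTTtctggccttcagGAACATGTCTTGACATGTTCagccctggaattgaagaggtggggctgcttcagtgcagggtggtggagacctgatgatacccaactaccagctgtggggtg
Cdkn1a, downstream start (chr17:29093519-29093818, + strand): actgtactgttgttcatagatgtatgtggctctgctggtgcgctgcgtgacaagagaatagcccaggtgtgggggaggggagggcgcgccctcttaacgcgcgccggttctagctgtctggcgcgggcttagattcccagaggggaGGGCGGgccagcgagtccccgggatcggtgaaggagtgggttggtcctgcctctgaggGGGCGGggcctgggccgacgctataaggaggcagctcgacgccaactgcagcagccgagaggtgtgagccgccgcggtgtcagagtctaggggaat
Ccng1 (chr11:40755237-40755536, - strand): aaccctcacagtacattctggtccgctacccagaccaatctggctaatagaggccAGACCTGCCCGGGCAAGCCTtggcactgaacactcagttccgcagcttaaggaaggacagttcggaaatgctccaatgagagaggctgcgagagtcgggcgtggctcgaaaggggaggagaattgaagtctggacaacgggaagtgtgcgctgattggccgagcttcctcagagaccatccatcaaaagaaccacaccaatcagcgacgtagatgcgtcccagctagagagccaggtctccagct
Mdm2 (chr10:117710709-117711008, - strand): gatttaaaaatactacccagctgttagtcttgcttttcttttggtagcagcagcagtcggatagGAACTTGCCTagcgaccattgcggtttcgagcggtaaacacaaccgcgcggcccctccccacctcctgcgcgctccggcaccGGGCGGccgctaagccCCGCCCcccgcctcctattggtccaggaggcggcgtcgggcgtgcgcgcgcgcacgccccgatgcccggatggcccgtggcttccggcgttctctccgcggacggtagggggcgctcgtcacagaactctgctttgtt
Plk3 (chr4:117133914-117134213, - strand): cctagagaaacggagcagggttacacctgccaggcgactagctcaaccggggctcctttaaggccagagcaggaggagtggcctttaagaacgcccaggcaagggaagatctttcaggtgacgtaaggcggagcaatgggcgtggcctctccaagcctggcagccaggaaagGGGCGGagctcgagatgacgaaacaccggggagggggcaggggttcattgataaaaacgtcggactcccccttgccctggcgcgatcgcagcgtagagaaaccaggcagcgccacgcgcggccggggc

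The upstream Cdkn1a promoter held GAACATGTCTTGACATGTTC, which begins 51 bases before the start and departs from the consensus of 2 adjoining half-sites at 1 base. The Ccng1 promoter held such a match too, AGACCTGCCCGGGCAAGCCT, which begins 195 bases before the start. Of the 32851 promoters in the table, 0.0883% hold a match of this kind. A single half-site was found in 5 of the 11 promoters that the table lists for 9 of the 10 genes (Trp53inp1 is not among them), those of Cdkn1a (upstream), Ccng1, Mdm2, Sesn1 and Bax, and in 8.36% of all promoters. The Plk3 promoter has no such match and holds 1 GC box. GC boxes, searched on both strands as GGGCGG, were present in 9 of the 11 promoters, the downstream Cdkn1a promoter among them, and in 35.7% of all. Letters that match are a description of these windows: p53 targets are often bound outside them, and a window without a match says nothing about binding elsewhere.

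Plk3 encodes polo-like kinase 3, a stress-responsive kinase that is also induced as an early response gene. Its 1 probe set read 7.08 in the control kidney, 8.51 in mouse 1 and 8.81 in mouse 2. The acetate-fed mean was 8.66 ± 0.21 (SD, n = 2), 2.99-fold above the control. The control value lay far below both mice, and the gap of 0.30 between the mice was larger than that of Cdkn1a.

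Btg2 encodes an antiproliferative cofactor of mRNA deadenylation and is likewise known as an early response gene. Its brighter probe set read 8.99 in the control kidney, 9.39 in mouse 1 and 9.94 in mouse 2, a mean of 9.67 ± 0.38 (SD, n = 2). The other probe set read 9.09, 9.31 and 9.68. At both probe sets mouse 2 was the higher of the pair, and at the brighter one the gap between the mice, 0.54, exceeded the difference of mouse 1 from the control, 0.41.

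Ccng1 encodes cyclin G1, which recruits a phosphatase to Mdm2. Its 3 probe sets gave unequal sizes. The brightest read 9.81 in the control kidney, 9.99 in mouse 1 and 10.10 in mouse 2, the next 9.16, 9.50 and 9.54, and the dimmest 8.81, 9.44 and 9.39. The mean difference ran from 0.23 at the brightest through 0.36 to 0.60 at the dimmest, so the gene was above the control on all of them but by 1.18-fold to 1.51-fold depending on the probe set.

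Mdm2, the ubiquitin ligase that removes p53 and is itself among the best known p53 targets, stood close to the control. Its brightest probe set read 8.36 in the control kidney, 8.46 in mouse 1 and 8.60 in mouse 2, where the gap between the mice, 0.14, exceeded the difference of mouse 1 from the control, 0.10. A second probe set read 7.68 in the control and 7.89 in both mice, values that were exactly equal. The third, at a mean of 2.94, lay under the lowest mean tested, 4.21, and read 3.15, 2.89 and 2.79. The arrays thus gave a difference of 0.17 to 0.22 at the tested probe sets, and the opposite sign at the dim one.

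Sesn1 and Sesn2 encode sestrins, leucine-sensing and antioxidant proteins that restrain the growth kinase mTORC1. The brightest Sesn1 probe set read 8.16 in the control kidney, 8.53 in mouse 1 and 8.71 in mouse 2, 1.37-fold higher on average. Its name ends in _s_at, which marks probe sets that can match transcripts of more than one gene. The other tested Sesn1 probe sets were dim, with means of 5.51 and 5.10, and differed on average by 0.24 and 0.04; an untested one differed by 0.07. Sesn2 had no common direction. It read 8.06 in the control kidney, 8.21 in mouse 1 and 7.79 in mouse 2 at one probe set, and 7.91, 8.03 and 7.85 at the other, so the control lay between the mice on both.

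Of the genes linked to cell death, Trp53inp1 encodes a stress-induced nuclear protein that promotes p53 activity and autophagy. Its brighter probe set read 7.26 in the control kidney, 8.05 in mouse 1 and 7.97 in mouse 2, a mean of 8.01 ± 0.06 (SD, n = 2), 1.69-fold above the control. The dimmer one read 5.13, 5.13 and 5.19, so it did not show this difference. Phlda3 encodes a pleckstrin-homology protein that competes with the kinase Akt for membrane lipids. Its 1 probe set read 7.73, 8.41 and 8.23, a mean of 8.32 ± 0.13 (SD, n = 2), with mouse 1 at 1.60-fold and mouse 2 at 1.41-fold the control.

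**Figure D2:**
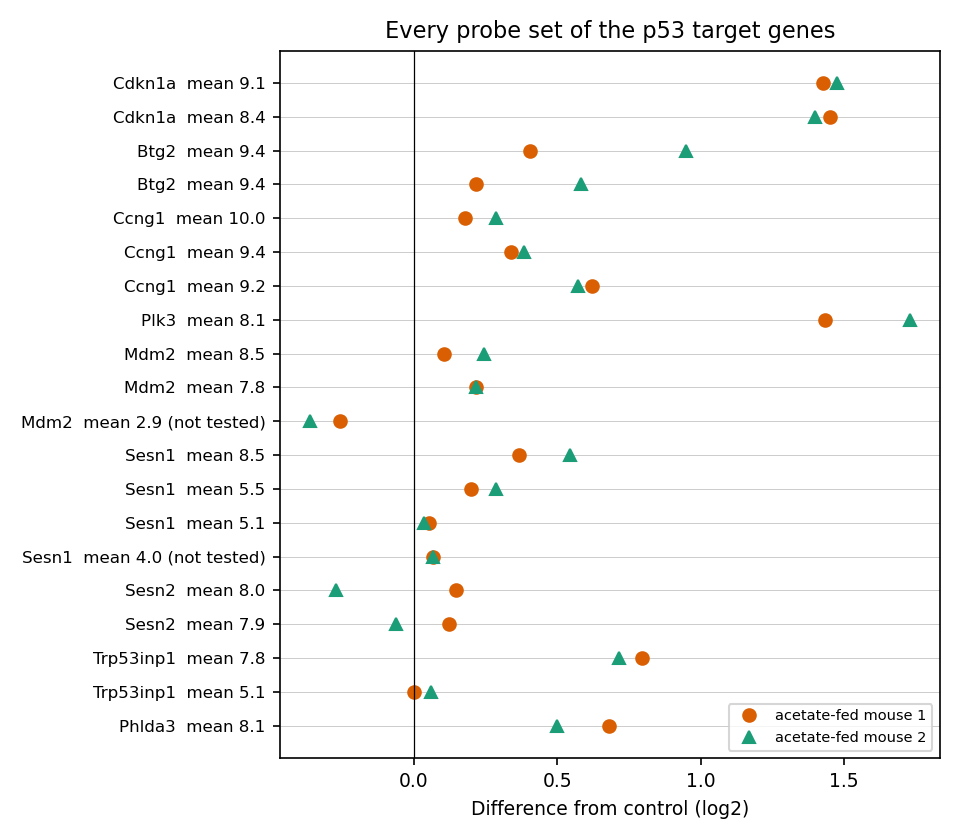
Difference from the control array (horizontal axis, log2) of acetate-fed mouse 1 (orange circles) and acetate-fed mouse 2 (green triangles) at each of the 20 probe sets of the 9 genes, labelled with the gene and the probe set's mean log2 value over the 3 arrays. The pairs of points at Cdkn1a and Plk3 lie at or above 1.397. The Ccng1 and Sesn1 probe sets spread from small to larger differences, and the Sesn2 pairs straddle 0.

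Counted by probe set, 15 of the 18 tested ones were higher than the control in both mice, against 26.9% of all tested probe sets. The other 3 were both Sesn2 probe sets and the dimmer one of Trp53inp1. Of the 18, 10 were higher in mouse 2 than in mouse 1, 7 the other way round and 1 equal. Over all 27022 tested probe sets these counts were 9634, 8289 and 9099. The median difference over the 9 genes was 0.41 in mouse 1 and 0.54 in mouse 2, where the median of all tested genes was 0.00 in each. Without Cdkn1a and Plk3 it was 0.37 and 0.50 over 7 genes.

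**Figure D3:**
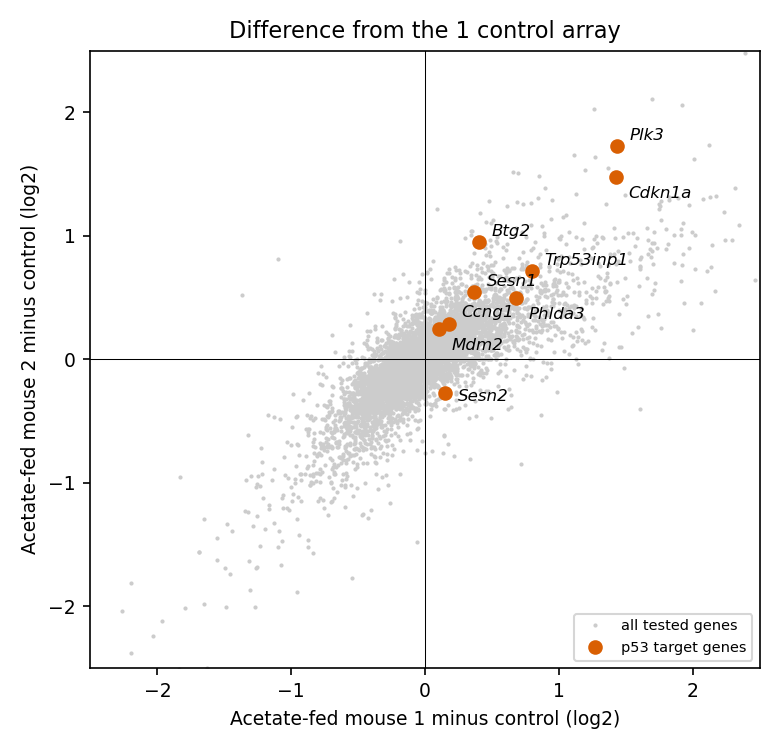
Difference from the control array of acetate-fed mouse 1 (horizontal axis, log2) and mouse 2 (vertical axis, log2) for the 9 p53 target genes (orange, named) over all 13473 tested genes (grey, with 30 genes beyond the axis limits of 2.5 not shown). Both axes share the control array, which by itself draws points along the diagonal. Plk3 and Cdkn1a lie at the upper right, Mdm2 and Ccng1 close to the origin and Sesn2 below the horizontal line.

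The 6 genes whose pair of differences lay nearest to that of Cdkn1a, by Euclidean distance over the 2 mice among 13472 other genes, were Fkbp5, Mki67, Clca3a1, Ddit4, Camk1d and Ube2c. Fkbp5, an immunophilin that binds steroid receptor complexes, read 8.17 in the control kidney, 9.61 in mouse 1 and 9.68 in mouse 2, a distance of 0.04. Mki67, the proliferation marker Ki-67, read 4.68, 6.04 and 6.22. Ddit4, an inhibitor of mTORC1 that is itself among the p53 targets, read 8.69, 9.96 and 10.33. Plk3 was the seventh nearest, and the next member, Trp53inp1, was number 194. With 3 arrays, likeness means only a similar size of difference in both mice.

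Other p53 targets were set beside the members as a list of 40, of which 38 had a named probe set and 36 were tested. Of the 36, 15 lay above and 10 below the control in both mice (26% and 30.9% of all tested genes). The list's median difference was 0.00 in each mouse. At least 1.5-fold higher in both were 2 of the 36, Ddit4 and Pltp (1.75% of all tested genes). None was at least 1.5-fold lower in both, where 1.6% of all tested genes were. Ddit4 was 2.42-fold and 3.12-fold higher. Pltp, a phospholipid transfer protein gene, was 2.21-fold and 1.53-fold higher. Pmaip1, which encodes the death-promoting protein Noxa, was 1.59-fold and 1.44-fold higher. Fas, the death receptor gene, and Ddb2, a DNA damage sensor gene, were read at 1 value on every array, 6.22 and 6.55. Gadd45a, a growth arrest gene, read 7.88 in the control kidney, 8.28 in mouse 1 and 8.20 in mouse 2.

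By limma's test over all 27022 tested probe sets, with Benjamini-Hochberg adjustment, 4 of the 36 passed as higher and 2 as lower, where 3.97% of all tested genes passed as higher and 4.92% as lower. Pidd1 (1.24-fold) and Bbc3 (1.21-fold), which encode the death proteins PIDD and PUMA, rose with an adjusted p of 0.0091 each. Apaf1, the apoptosome scaffold gene, rose 1.10-fold and Psrc1 1.05-fold. Tigar, a regulator of glycolysis, fell by 0.03 on the log2 scale, and the drug exporter gene Abcb1a fell by 0.57. In 5 of these 6 the acetate-fed values were exactly equal, which leaves the test no spread between the mice, and in the sixth, Abcb1a, they were 5.42 and 5.45. None of the 36 passed after quantile normalization or median centring, although 12 had an unadjusted p under 0.05 in each. No probe set on the array passed limma in either of those 2 alternatives, so each limma call given below was lost in them too. The calls of each list below are likewise to be read beside the 3.97% and 4.92% of all tested genes. Ddit4, with the largest difference of the list, did not pass limma's test (adjusted p = 0.31). When probe sets with equal acetate-fed values did not enter the fit, limma called Ddit4, Pltp, Pmaip1 and Tap1 higher and Abcb1a, Dcxr and Dglucy lower.

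**Figure D4:**
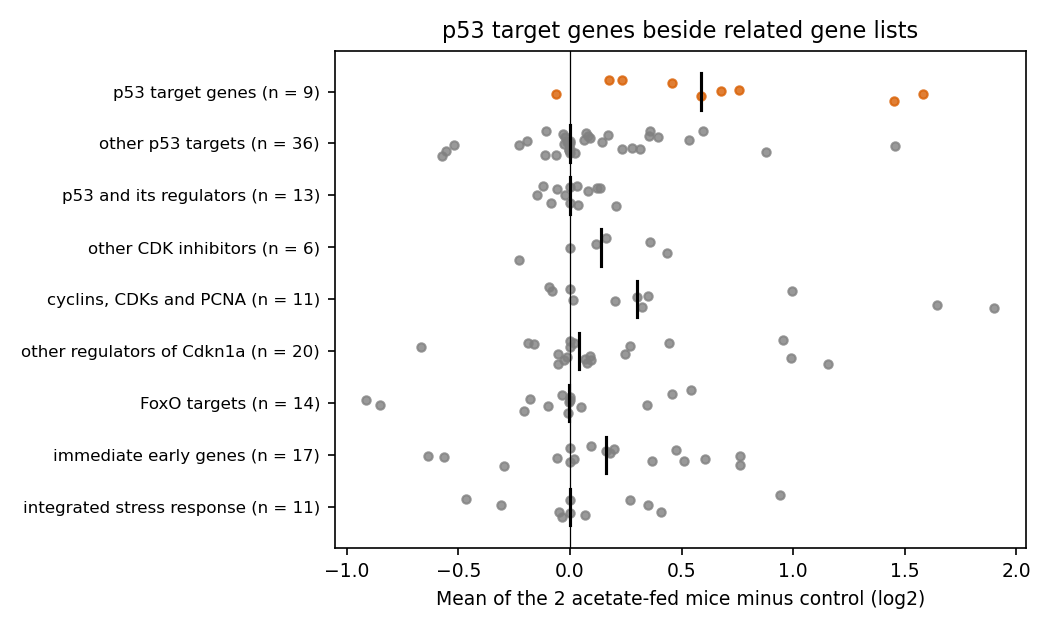
Mean log2 difference of the 2 acetate-fed mice from the control (horizontal axis) for each tested gene of 9 lists, 1 point per gene with vertical scatter for legibility only, and a black bar at each list's median. The 9 p53 target genes (orange) were chosen with these values known, and their median of 0.59 is therefore no test against the 36 other p53 targets, whose median lies at 0.

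Genes that act on p53 itself lay close to the control. Of 13 tested regulators 4 were higher and 3 lower in both mice (26% and 30.9% of all tested genes), none by 1.5-fold. By limma's test 0 passed in either direction, with 1 at an unadjusted p under 0.05. At the brightest probe sets, the largest difference in 1 direction in both mice was that of Trp53bp1, a DNA damage response adaptor, at 1.19-fold and 1.12-fold higher. The tested probe sets of Mdm4 differed in sign. The brightest was 1.20-fold the control in mouse 1 and equal to it in mouse 2. A dimmer one was 1.26-fold and 1.32-fold higher, and another 1.18-fold lower in both mice. Usp7, whose product removes ubiquitin from Mdm2 and p53, read 9.46 in the control kidney, 9.30 in mouse 1 and 9.37 in mouse 2. Trp53, the gene of p53, was not analysed here.

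The other CDK inhibitors differed less than Cdkn1a. Of 6 tested, 3 were higher in both mice (26% of all tested genes) and none was 1.5-fold higher or lower in both. Cdkn2b, which encodes p15, rose 1.35-fold by limma's test (adjusted p = 0.0094), with exactly equal acetate-fed values of 7.08 against 6.64, and was the 1 call of the list. Cdkn1b, which encodes p27, read 7.86, 8.01 and 8.04, and Cdkn1c, which encodes p57, had the value 9.52 on all 3 arrays. Among the kinases and cyclins that p21 acts on, listed together with Pcna, 6 of 11 were higher in both mice and 1 lower (26% and 30.9% of all tested genes). At least 1.5-fold higher in both were 3 of the 11 (1.75%). Cdk1, the mitotic kinase, read 5.23 in the control kidney, 6.92 in mouse 1 and 7.33 in mouse 2. Ccnb2 read 4.01, 5.27 and 6.04, and Ccna2 5.13, 5.86 and 6.39. By limma's test 0 of the 11 passed in either direction, with 0 at an unadjusted p under 0.05. Cdk4 had the value 9.64 on all 3 arrays.

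Paralogs of the members were picked after their values were seen. Of 12 tested, 5 lay above and 2 below the control in both mice (26% and 30.9% of all tested genes). Ccng2 read 8.09 in the control kidney, 8.20 in mouse 1 and 7.97 in mouse 2. Sesn3 read 8.45, 8.49 and 8.51, and Trp53inp2 10.62, 10.56 and 10.66. Phlda2 lay below the control in both mice, 1.78-fold and 1.77-fold lower. Plk2 was 2.04-fold and 1.64-fold higher, Btg1 1.38-fold and 1.34-fold, Plk1 1.20-fold and 1.27-fold, and Cdkn1b 1.11-fold and 1.13-fold.

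Other factors known to act on the Cdkn1a promoter numbered 20 tested genes. Of the 20, 9 lay above the control in both mice and 3 below it (26% and 30.9% of all tested genes). At least 1.5-fold higher in both were 3 of the 20 (1.75%). Foxo3, a stress-responsive activator, read 9.62 in the control kidney, 10.62 in mouse 1 and 10.60 in mouse 2 and rose 1.99-fold by limma's test (adjusted p = 0.026), the 1 call of the list. A dim Foxo3 probe set, at 4.24 in the control, differed by 0.24 and 0.22 on the log2 scale. Cebpb read 8.83, 9.72 and 9.85, and Bcl6, a repressor, 6.34, 7.67 and 7.32. Cebpa went the other way, 9.08 in the control against 8.51 and 8.33. Among 14 known targets of FoxO factors, 4 were higher and 5 lower in both (26% and 30.9% of all tested genes). None was at least 1.5-fold higher in both, and 2, Irs2 and Pdk4, were at least 1.5-fold lower (1.6% of all tested genes). Txnip was 1.44-fold and 1.47-fold higher, and Irs2 was 2.05-fold and 1.59-fold lower. Klf15 rose 1.37-fold (limma adjusted p = 0.035) and Pdk4 fell by 0.91 on the log2 scale (limma adjusted p = 0.046).

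Because Plk3 and Btg2 are also early response genes, that group was set beside them. Of 17 tested genes 9 lay above and 3 below the control in both mice (26% and 30.9% of all tested genes). At least 1.5-fold higher in both was 1 of the 17 (1.75%). Junb (1.69-fold, limma adjusted p = 0.020), Klf2 (1.15-fold) and Jund (1.13-fold) rose, and Nr4a1 lay 1.98-fold and 1.21-fold below the control. Fosl2 read 6.80 in the control kidney, 7.92 in mouse 1 and 7.22 in mouse 2. Sesn2 is also a target of the integrated stress response. Of 11 tested genes of that response, 5 lay above and 3 below the control in both mice (26% and 30.9% of all tested genes). There were 0 calls by limma in either direction and 0 at an unadjusted p under 0.05. Herpud1, an endoplasmic reticulum stress gene, was 1.73-fold and 2.12-fold higher, while Trib3 and Atf5 had the same value on all 3 arrays.

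Marker lists of other cells also differed between the control and the acetate-fed arrays. Each of the 16 tested macrophage genes lay above the control in both mice (26% of all tested genes), 13 of them at least 1.5-fold (1.75%). Their summed linear signal was 3162 in the control and 6331 to 11491 in the acetate-fed mice. All 9 tested fat cell genes were lower in both mice (30.9% of all tested genes), each by at least 1.5-fold (1.6%). Their summed signal was 7433 in the control and 1206 to 1278 in the acetate-fed mice. No marker was at 0; the lowest value of a macrophage marker was 5.08 and of a fat cell marker 3.12. Macrophage genes were higher in mouse 1, with a median difference of 1.78 against 0.99 in mouse 2. Among the 9 p53 targets 3 were higher in mouse 1 (Trp53inp1, Phlda3 and Sesn2) and 6 in mouse 2, Cdkn1a by 0.05. Of all 13473 tested genes, 4215 were higher in mouse 1 and 5236 in mouse 2. Injury and senescence genes numbered 15 tested, 12 of them above the control in both mice (26% of all tested genes). Lcn2, which encodes NGAL, was 16.9-fold and 4.95-fold higher, and Havcr1, which encodes KIM-1, 12.8-fold and 1.58-fold. In that list Krt18 (1.68-fold, limma adjusted p = 0.018) and Cdkn2b rose. The part of these cells in the differences of the p53 targets was not tested. Of 11 tested markers of tubule and glomerulus, 5 were higher and 4 lower in both mice (26% and 30.9% of all tested genes). None differed by 1.5-fold in both, and the lowest value of any on any array was 7.15.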

How the data were processed

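The authors deposited log2 expression values of 3 arrays, with medians of 4.91, 4.94 and 4.93; the submitters' processing notes name MAS5, and how the log2 values were summarised is not given in the sources used here. Exactly equal values on all 3 arrays occur at 20.5% of tested probe sets. No scanner file was used, so background and saturation are unknown; 3 arrays are few, and that limits precision. Of 45101 probe sets 45037 are not Affymetrix controls; 34945 had 1 gene symbol, 932 several and 9160 none, and 34741 matched RefSeq (GRCm38.p6) by Entrez identifier.

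The members and all lists were chosen with earlier results of these data known. The upper 60% of probe sets by mean were tested (27022), and each gene was read at the brightest of its tested probe sets (13473 genes). The text names every member, the 6 genes nearest to Cdkn1a and, from the related lists, some of the genes that a rule put forward: the 4 of each list that differ most in 1 direction in both mice, and all at least 2-fold in both. The others that the rule put forward, all of the macrophage, fat cell and kidney markers among them, are given by counts. Fas, Ddb2, Gadd45a, Mdm4, Usp7, Cdk4, Cdkn1c, Trib3, Atf5, the limma calls and the paralogs were picked after their values were seen. limma 3.58.1 (R 4.3.3; lmFit, eBayes with intensity trend, Benjamini-Hochberg at 0.05) compared acetate with control; its 1 residual degree of freedom is the spread within the acetate-fed pair, which the control is assumed to share. Tables were made with Python 3.11.15 and pandas 2.3.3, plots with matplotlib 3.10.9. Alternatives were quantile normalization, median centring, other filters, the mean over a gene's probe sets, either mouse left out, no trend, and exactly tied pairs left out.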

Additional observations from a re-analysis of the deposited data

How the results depend on the processing

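The count of member genes higher in both acetate-fed mice was 8 under every alternative with both mice, and 8 to 9 with 1 mouse left out. The mean Cdkn1a difference ranged from 1.43 to 1.47 over all alternatives. The median member difference of 0.59 became 0.40 with the mean over each gene's tested probe sets, and 0.41 to 0.54 with 1 mouse left out. With that mean Trp53inp1 was 0.39, Sesn1 0.25 and Ccng1 0.40, and 2 genes in place of 3 were at least 1.5-fold higher in both. Sesn2 was 0.15 without acetate-fed mouse 2 and -0.27 without mouse 1. Other p53 targets higher in both numbered 9 among the upper 40% of probe sets, where fewer genes were tested, and those lower in both numbered 17 after median centring, which gives exact ties a sign. limma's calls, 1400 higher and 1446 lower, were 0 and 0 after quantile normalization, after median centring and among the upper 40% of probe sets (4289, 4959 and 3513 at an unadjusted p under 0.05), 3140 and 3383 with no filter, and 1174 and 890 without tied pairs. Its calls among other p53 targets were 0 higher and 0 lower in the same 3 alternatives (12, 12 and 2 at an unadjusted p under 0.05), 6 higher and 2 lower with no filter, 4 and 1 without trend, and 4 and 3 without tied pairs. Of the 2846 calls, 92.3% had exactly equal acetate-fed values. With 1 mouse left out limma has no residual degree of freedom and was not run. No paired analysis was possible because the control is 1 mouse.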
